A study of Mus musculus with 10 samples.

Results

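Aif1 encodes allograft inflammatory factor 1, also called IBA1, a small calcium-binding protein of macrophages that binds and bundles actin filaments. It was examined together with its paralogue Aif1l and with 6 other actin-binding genes, Lcp1, Lsp1, Fscn1, Coro1a, Vasp and Cfl1. The 8 genes were picked by name and role, with earlier results of these data known. The study itself had singled out Aif1 from these data, for its strong upregulation in MAMs and its membership of enriched gene sets. It also reported higher Aif1 in MAMs by a separate qRT-PCR. Its staining found AIF1 protein in part of the macrophages within metastases and little in RAMs. The members are 8 of the 24538 genes counted in each library. RNA-seq was performed on 5 libraries of metastasis-associated macrophages (MAMs) and 5 libraries of resident alveolar macrophages (RAMs). MAMs were sorted as CD11B+CD11C- cells from micro-dissected lung metastases less than 1 mm wide, and RAMs as CD11B-CD11C+ cells from normal lungs, so the comparison is between sorted macrophages rather than between whole tissues. All mice were wild type C57BL6/J females aged 8 to 10 weeks, and all sorted cells also passed the gates CD45+, F4/80+, LY6C-, MRC1+ and high forward scatter. The metastases were seeded by injecting E0771-LG, a metastatic line derived from a mouse mammary cancer, into the tail vein at 6 to 8 weeks of age, and each MAM library was pooled from 2 to 4 mice. Gate, tissue and tumour burden differ between the groups at once and cannot be told apart.

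Macrophages move and engulf by remodelling a network of actin filaments. Cofilin severs old filaments and returns monomers, the Arp2/3 complex and formins start and extend new ones, Ena/VASP proteins keep their growing ends open, coronins modulate branching and turnover, and bundling proteins such as plastin and fascin tie filaments into parallel arrays. AIF1 is used as a marker of microglia and tissue macrophages, gathers at membrane ruffles, and is known to bind L-plastin, the product of Lcp1, and to strengthen its bundling of actin.

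Counts on genes ran from 55391447 to 87523247 in MAM libraries and from 50746305 to 72150650 in RAM libraries. A level in CPM is a count scaled to the TMM-normalized total of the 11571 genes tested, and a level in FPKM, used wherever genes are compared with each other, is also divided by transcript length. Sums of marker genes followed the labels. The 10 markers of monocyte-derived macrophages summed to between 13838 and 15745 CPM in MAMs and between 384 and 487 in RAMs. Itgam, the gene of the gated CD11B, averaged 6270 CPM in MAMs, so the gate itself fixes part of that sum. The 10 alveolar markers summed to between 268 and 564 CPM in MAMs and between 10194 and 13059.8 in RAMs. Marco, the most abundant of these in MAMs at 232 CPM on average, had groups that overlapped. No pair of libraries was identical. In bulk samples such as these, fewer cells expressing a gene and less RNA per cell cannot be told apart.

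Aif1 was the member that differed most among those tested. It lies at chr17:35170991-35176068 on the minus strand of GRCm38, in 8 exons that overlap no other annotated exon, and none of the 50-base windows of its 875-base transcript occurs in another gene. In MAM replicates 1 to 5 its level was 175, 128, 197, 229.7 and 196 CPM. In RAM replicates 1 to 5 it was 2.14, 2.33, 1.90, 3.36 and 2.62 CPM. Every MAM library was far above every RAM library, and the libraries within each group differed from one another by much less than the groups did. The means were 185 ± 37.3 CPM in MAMs and 2.47 ± 0.562 in RAMs (SD, n = 5 each), a log2 fold change of 6.23 (SE 0.197), or 75.1-fold, with an adjusted p of 1.0e-12 in edgeR's quasi-likelihood test. Adjusted p-values here are Benjamini-Hochberg values over all 11571 genes tested, and a gene was called at 0.05. Of all genes tested, 56.2% were called, 28.9% as higher in MAMs and 27.3% as lower. In the order of mean FPKM over all genes tested, Aif1 stood at the 97.4th percentile in MAMs and at the 21.6th in RAMs.

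Aif1 remained countable in every RAM library, from 92 to 161 counts. Its RAM level was 1.33% of its MAM level. The same share was 1.03% for Itgam, which encodes the CD11B of the MAM gate, and 0.912% for C1qb, the lowest among the 116 genes over 1000 CPM in MAMs. That lowest share of the Aif1 level in MAMs would be 1.69 CPM, against the 2.47 CPM measured. Which cells gave the Aif1 reads in RAM libraries was not tested.

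Aif1l, the paralogue of Aif1 and likewise an actin-binding EF-hand protein, was close to the limit of detection. It lies at chr2:31950139-31973442 on the plus strand, and an antisense gene, Gm13442, overlaps its exons. MAM replicates 1 to 5 had 0.0407, 6.45, 1.39, 1.63 and 1.21 CPM, from 2, 344, 62, 90 and 84 counts. RAM replicates 1 to 5 had 2, 0, 1, 0 and 0 counts, or at most 0.0342 CPM, and 3 counts would be 0.0450 to 0.0639 CPM in these libraries. Of the MAM libraries 4 were clearly above every RAM library, while MAM replicate 1 and RAM replicate 1 each had 2 counts. Summed counts were 582 in MAMs and 3 in RAMs, a ratio of normalized rates of 191 with an exact 95% interval of 65.1 to 930 that covers counting error only. MAM replicate 2 held 60.2% of the summed MAM level, and the MAM mean fell from 2.14 to 1.07 CPM without it. Mean FPKM was 0.726 in MAMs and 0.00699 in RAMs, below the minimum of 1 FPKM for testing, so Aif1l was not tested.

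The promoter windows of the pair are shown because both paralogues had higher counts in MAMs and differ in level by orders of magnitude. Each is 300 bases, 250 before and 50 after the RefSeq start on GRCm38.p6, at chr17:35176003-35176302 (minus strand) for Aif1 and chr2:31950053-31950352 (plus strand) for Aif1l. Capitals mark a match to the letters of an interferon-stimulated response element, GAAA and GAAA with any 2 bases between them, searched on both strands.
Aif1: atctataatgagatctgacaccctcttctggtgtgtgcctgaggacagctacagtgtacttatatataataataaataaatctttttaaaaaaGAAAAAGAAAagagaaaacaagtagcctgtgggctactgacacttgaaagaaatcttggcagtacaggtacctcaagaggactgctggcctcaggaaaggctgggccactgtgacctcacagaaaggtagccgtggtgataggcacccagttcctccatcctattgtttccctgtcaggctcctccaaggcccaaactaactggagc
Aif1l: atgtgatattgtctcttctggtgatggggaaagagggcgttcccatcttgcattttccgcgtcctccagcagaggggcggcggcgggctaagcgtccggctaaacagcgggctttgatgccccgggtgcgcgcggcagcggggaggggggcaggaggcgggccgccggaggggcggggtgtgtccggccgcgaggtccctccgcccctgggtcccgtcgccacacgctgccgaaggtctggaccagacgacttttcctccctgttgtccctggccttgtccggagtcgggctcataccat
The Aif1 window had 45.0% G and C, at the 22.0th percentile of all 32851 RefSeq promoter windows, and 1 CpG. The Aif1l window had 67.7% G and C, at the 86.8th percentile, and 29 CpG. The medians over all windows were 52.7% and 7 CpG. The match in the Aif1 window begins at -157 from the start, in a run of A and G, and 3.44% of all windows hold such a match. The letters of a gamma-activated site, TTC and GAA with any 3 bases between them, which read the same on both strands, were in 8.30% of all windows and in none of the members'. Of the 8 members 7 had a window in the table, 9 windows in all (Lsp1 had none), and the Aif1 match was the only one to either pattern. A match is a string of letters and not evidence of binding.

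Around Aif1, in the class III region of the major histocompatibility complex, Lst1 was the one tested neighbour with a large difference. Lst1, which encodes a small protein of leukocytes, lies 9027 bases away and ran from 37.3 to 41.9 CPM in MAMs and from 2.52 to 7.22 in RAMs. Its log2 fold change was 3.21 (SE 0.247, adjusted p = 2.8e-08, edgeR), and its groups did not overlap. Prrc2a, 6094 bases away on the other side, was at 0.18 and Bag6, 23669 bases away, at 0.08, and neither passed the edgeR threshold (adjusted p = 0.0549 and 0.516). Tnf, the gene of tumour necrosis factor, had a log2 fold change of 0.42 (adjusted p = 0.0168, edgeR) and groups that overlapped. Apom and Ltb, also among the 3 nearest genes on either side, were below the minimum for testing.

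**Figure D1:**
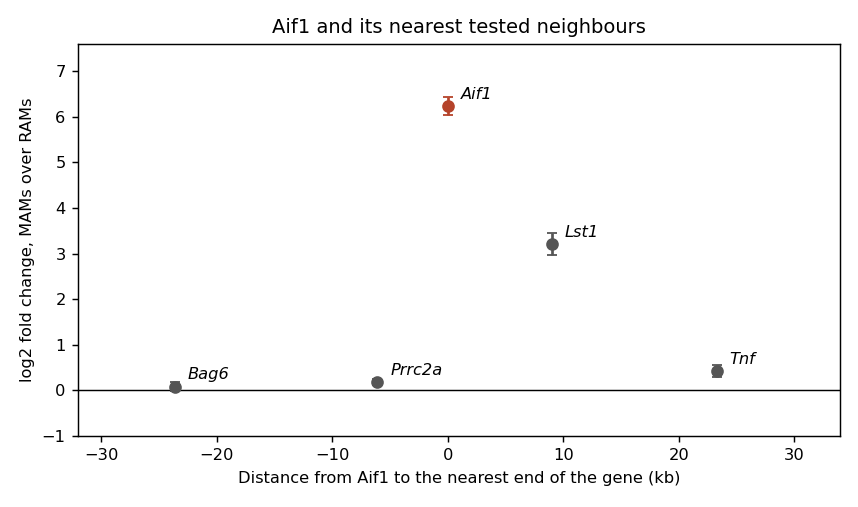
The log2 fold change of MAMs over RAMs (vertical axis, ± standard error) against the distance in kb from Aif1 to the nearest end of each tested neighbouring gene (horizontal axis, 0 at Aif1). Aif1 at 6.23 and Lst1 at 3.21 stand above the other 3 genes, which lie between 0.08 and 0.42.

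The bundling proteins among the members did not move as one. Lcp1, the gene of the leukocyte bundling protein L-plastin, lies at chr14:75131101-75230842 on the plus strand. Its level was 2222, 2357, 2335, 2551 and 2567 CPM in MAM replicates 1 to 5. RAM replicates had 2949, 2846, 2981, 3157 and 2789.6 CPM. Every RAM library was above every MAM library, but by a small margin. The log2 fold change was -0.29 (SE 0.0610, adjusted p = 0.00081, edgeR), or 1.22-fold lower in MAMs. Of the 50-base windows of its transcript 14.4% also occur in other annotated genes, among them Gm15628, which overlaps Lcp1 on the opposite strand. The study counted uniquely mapped reads, so Lcp1 reads that also match elsewhere in the genome could be left out of its count.

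Lsp1, which encodes lymphocyte-specific protein 1, an F-actin-binding protein of leukocytes, lies at chr7:142460809-142494867 on the plus strand. MAM replicates 1 to 5 had 279, 248, 232, 213 and 249 CPM. RAM replicates had 752, 563, 540.0, 578 and 558 CPM. All RAM libraries were above all MAM libraries, and RAM replicate 1 stood apart from the other RAM libraries. Lsp1 was lower in MAMs by 2.45-fold, at a log2 fold change of -1.29 (SE 0.1004, adjusted p = 3.1e-08, edgeR), and at -1.20 without RAM replicate 1.

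Fscn1 encodes fascin, which packs filaments into tight parallel bundles in filopodia and in the dendrites of mature dendritic cells, and lies at chr5:142960343-142973185 on the plus strand. MAM replicates 1 to 5 had 5.10, 2.66, 12.6, 4.80 and 14.3 CPM, from 142 to 993 counts. RAM replicates had 0.0342, 0.435, 0.683, 0.0626 and 0 CPM, from 0 to 33 counts. The groups did not overlap, but MAM replicates 3 and 5 were well above the other 3 MAM libraries, and RAM libraries ranged from no count to 33. The log2 fold change was 5.00 (SE 0.917, adjusted p = 0.00026, edgeR). With limma on log2(FPKM + 1) it was 2.06, still past the threshold, where the added 1 exceeds every RAM value of Fscn1. The ratio of normalized summed counts was 32.6, with an exact 95% interval of 25.6 to 42.2 for counting error alone.

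Markers of other cells that a gate could let through were measured beside Aif1l and Fscn1, the members with few reads. The 10 stromal and endothelial markers summed to between 43.1 and 97.4 CPM in MAMs and between 2.17 and 12.9 in RAMs. Their most abundant gene in MAMs was Kdr, the VEGF receptor of endothelium, at 29.0 CPM. All 5 of the list that were tested were called higher in MAMs, where 28.9% of all genes were. Of the other endothelial genes Pecam1 was at a log2 fold change of 2.86 and Cdh5 at 1.48, both with groups that overlapped, and Cldn5 had no count in any MAM library. The 10 dendritic cell markers summed to between 222 and 279 CPM in MAMs and between 40.6 and 72.1 in RAMs, nearly all of it in MAMs from Bst2 at 246 CPM, a gene that many interferon-exposed cells express. Of the 5 dendritic markers tested 2 were called higher in MAMs, Bst2 and Ccr7, and 2 lower, Clec9a and Ccl22. Over all genes 28.9% were called higher and 27.3% lower. Ccr7, a receptor of mature dendritic cells, was at a log2 fold change of 2.58 (adjusted p = 0.027, edgeR). It ran from 0.134 to 5.81 CPM in MAMs and reached at most 0.639 in RAMs. Its highest value was in MAM replicate 2, the MAM library with the least Fscn1 and the most Aif1l. Flt3 had at most 1 count in a MAM library and Siglech none. The 9 epithelial and tumour markers summed to between 9.84 and 24.1 CPM in MAMs and between 589.5 and 702 in RAMs, led in both by Krt19. Of these, Krt19, Epcam and Cdh1 were called lower in MAMs. In RAMs they averaged 436, 76.8 and 131 CPM, and whether the alveolar macrophages or other cells gave those reads was not tested. Krt8, a keratin gene that was not tested, had 34 to 148 counts in MAM libraries and 0 to 12 in RAM libraries, and Krt18 reached 8.84 CPM in MAM replicate 1 and was not called. Krt5, Cldn4 and Esrp1 were at 0 in MAMs. Markers of T and NK cells summed to at most 17.2 CPM in MAMs and 6.61 in RAMs. Of the markers in these sentences Ccr7, Clec9a, Flt3, Pecam1, Epcam, Cdh1, Krt8 and Krt18 were named after their values were seen. The part of such cells in the Aif1l and Fscn1 values was not tested.

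The members that act on filament turnover and growth differed by less than 2-fold. Coro1a encodes coronin 1A, the coronin of leukocytes that binds filaments and the Arp2/3 complex, and lies at chr7:126699773-126707787 on the minus strand, where exons of Bola2 overlap it on the opposite strand. MAM replicates 1 to 5 had 225, 221, 278, 341 and 349 CPM. RAM replicates had 321, 278, 266, 323 and 297 CPM. The groups overlapped, with the 2 lowest and the 2 highest of the 10 values all in MAMs. The log2 fold change was -0.07 (SE 0.126, adjusted p = 0.663, edgeR), and an exact two-sided permutation test of the mean CPM gave p = 0.651.

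Vasp encodes vasodilator-stimulated phosphoprotein, which speeds filament elongation at the leading edge, and lies at chr7:19256929-19271817 on the minus strand. MAM replicates 1 to 5 had 123, 124, 100.0, 107 and 138 CPM. RAM replicates had 201, 169, 171, 191 and 185 CPM, each above every MAM library. Vasp was lower in MAMs by 1.55-fold, at a log2 fold change of -0.63 (SE 0.0949, adjusted p = 4.1e-05, edgeR).

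Cfl1 encodes cofilin 1, the main filament-severing protein of non-muscle cells, and lies at chr19:5490455-5495201 on the plus strand, where exons of Snx32 overlap it on the opposite strand. MAM replicates 1 to 5 had 862, 777, 904, 921 and 1037 CPM. RAM replicates had 613, 562, 559.7, 729 and 588 CPM, each below every MAM library. The log2 fold change was 0.56 (SE 0.0907, adjusted p = 8.1e-05, edgeR), or 1.48-fold higher in MAMs. Of the 50-base windows of its transcript 23.0% also occur in other genes, Snx32 and cofilin pseudogenes among them, and no strand setting of the counting was given in the sources used here.

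**Figure D2:**
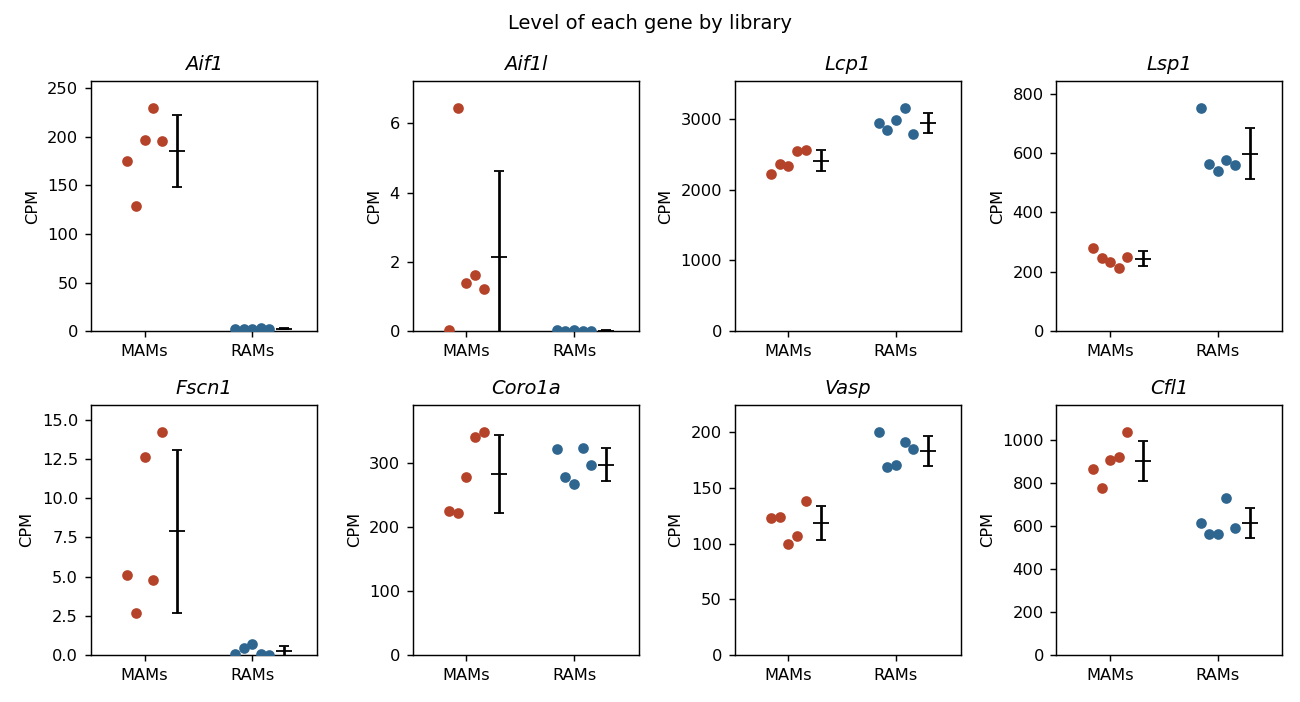
CPM of the 8 genes in each library (points, replicates 1 to 5 from left to right in each group), with the mean and SD beside them in black and a separate vertical axis from 0 for each gene. The groups are apart for 6 genes and overlap for Coro1a, Aif1l in MAM replicate 2 reaches 6.45 CPM, and the lower SD bar of Aif1l in MAMs is cut off at 0.

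Of the 7 members tested, 3 were called higher in MAMs (Aif1, Fscn1 and Cfl1), 3 lower (Lcp1, Lsp1 and Vasp) and 1, Coro1a, was not called. Over all genes tested 28.9% were called higher and 27.3% lower. Requiring also a fold change over 2, the rule for differential expression, left Aif1 and Fscn1 higher and Lsp1 lower, where 30.3% of all genes tested passed that rule, 15.3% as higher in MAMs and 15.1% as lower. The libraries of the 2 groups did not overlap for 6 of the 7, 3 with MAMs above and 3 with RAMs above. Of all genes tested 44.9% had groups that did not overlap, 23.7% with MAMs above and 21.2% with RAMs above. For each of these 6 genes an exact two-sided permutation test of mean CPM gave p = 0.00794, the smallest that 5 libraries against 5 allow. Groups that do not overlap always give that value, so the test adds nothing to the separation. Fscn1, at a mean of 4.19 FPKM in MAMs and 0.115 in RAMs, passed the minimum for testing through MAMs alone. Its place among the higher genes is therefore tied to that filter. With 7 genes, these counts describe the members and no more. The median log2 fold change was -0.07 over the 7 members and -0.02 over all genes tested.

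On the length-scaled FPKM scale the order of the members changed with the group, mainly through Aif1. In MAMs Cfl1 was highest at 791 ± 81.5 FPKM, followed by Lcp1 at 647 ± 40.0. Aif1 came next at 229.8 ± 43.2, with Coro1a at 208 ± 44.1 and Lsp1 at 143 ± 14.9. Aif1 and Coro1a overlapped in MAMs and Aif1 was above in 3 of 5 libraries, and Coro1a and Lsp1 overlapped as well. Vasp followed at 76.1 ± 8.78 FPKM, and Fscn1 at 4.19 ± 2.69 overlapped Aif1l at 0.726 ± 0.814. In RAMs Lcp1 led at 806 ± 39.7 FPKM, ahead of Cfl1 at 551 ± 67.2, Lsp1 at 353 ± 48.0, Coro1a at 229 ± 19.1 and Vasp at 119 ± 10.0. Aif1 stood below these at 2.72 ± 0.884 FPKM, and Fscn1 at 0.115 ± 0.118 overlapped Aif1l. Neighbours in the RAM order other than Fscn1 and Aif1l did not overlap. All SDs are over 5 libraries. The 5 members other than Aif1, Aif1l and Fscn1 thus lay at or above the 91.9th percentile of all genes in both groups.

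**Figure D3:**
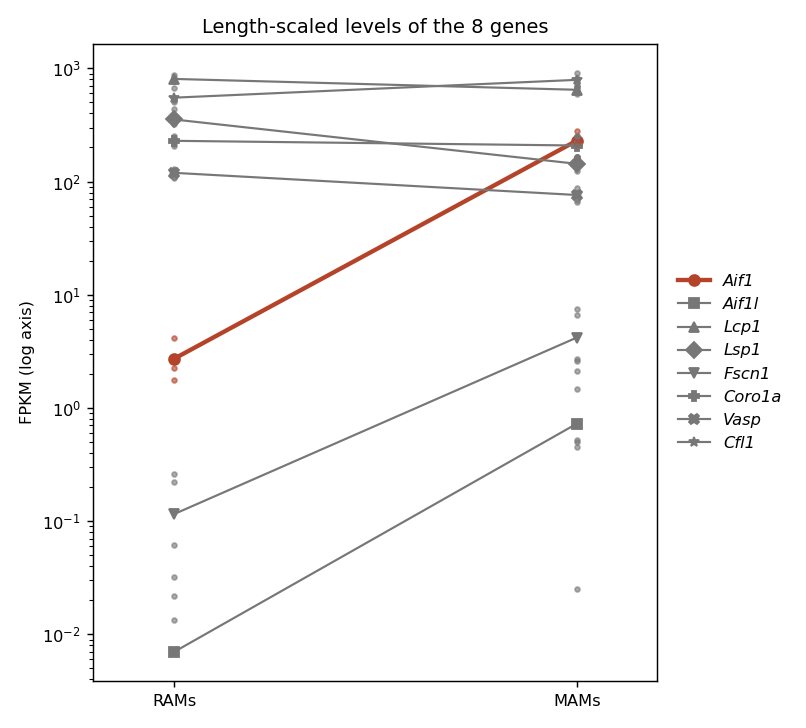
FPKM of the 8 genes on a log axis in RAMs (left) and MAMs (right), with large symbols and lines for the means of 5 libraries and small points for single libraries, those at 0 not drawn. Aif1, in red, crosses from 2.72 FPKM, below Vasp, to 229.8 FPKM, beside Coro1a.

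Replicates varied least for Lcp1 and most for the rare members. The coefficient of variation of CPM was 6.17% in MAMs and 4.81% in RAMs for Lcp1, against 20.2% and 22.7% for Aif1 and 65.8% and 124% for Fscn1. Ranked among all genes by the SD of log2 CPM in MAMs, Lcp1 was at the 5.91st percentile, Aif1 at the 54.9th and Fscn1 at the 92.4th. Coro1a varied more among MAMs (21.5%) than among RAMs (8.57%). That difference in spread was not tested.

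Within its own paralogue family, measured as a share of the family's summed FPKM in each library, Aif1 held nearly all of it in both groups, 99.6% ± 0.515 in MAMs and 99.7% ± 0.475 in RAMs (SD, n = 5 each, exact two-sided permutation test, p adjusted over the 6 families 0.976). The family total went from 2.72 ± 0.877 FPKM in RAMs to 230.6 ± 42.6 in MAMs. Among the plastins, Lcp1 held 98.7% ± 0.676 in MAMs and 99.8% ± 0.0733 in RAMs, with no overlap (exact two-sided permutation test, n = 5 each, p = 0.00794, adjusted over the 6 families 0.0159). The remainder was mostly Pls3, the plastin of non-leukocyte cells, at 8.39 ± 4.00 FPKM in MAMs against 1.92 ± 0.559 in RAMs, with its log2 fold change at 2.15 (SE 0.350, adjusted p = 8.5e-05, edgeR). Pls1, the intestinal plastin, was below the minimum for testing.

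The cofilin family changed its make-up. Cfl1 held 92.4% ± 0.872 of it in MAMs and 78.3% ± 2.56 in RAMs, with no overlap (exact permutation test, n = 5 each, p = 0.00794, adjusted over the 6 families 0.0159). The difference of 14.1 percentage points was 22.4 when counts per kilobase took the place of FPKM. Dstn, which encodes the related depolymerizing factor destrin, was at 58.1 ± 2.84 FPKM in MAMs against 147 ± 6.71 in RAMs, with its log2 fold change at -1.35 (SE 0.0691, adjusted p = 2.5e-10, edgeR). Cfl2, the muscle cofilin, was low in both groups and had a log2 fold change of 0.68 (adjusted p = 0.0083, edgeR).

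Fscn1 held 78.7% ± 18.8 of the fascin family in MAMs and 10.2% ± 10.9 in RAMs (exact permutation test, n = 5 each, p = 0.00794, adjusted over the 6 families 0.0159). The difference of 68.6 percentage points shrank to 48.9 with counts per kilobase in place of FPKM. The family total was small, 5.01 ± 2.43 FPKM in MAMs and 1.02 ± 0.512 in RAMs, and Fscn2 and Fscn3 were below the minimum for testing in both. The Fscn1 counts behind the RAM shares were 0 to 33. For Vasp and Coro1a no difference in share was detected. Vasp held 45.3% ± 3.09 of the Ena/VASP family in MAMs and 44.3% ± 4.35 in RAMs (exact permutation test, n = 5 each, adjusted p = 0.848). Evl, its main partner by level, was lower in MAMs as Vasp was, with a log2 fold change of -0.64 (SE 0.0941, adjusted p = 3.3e-05, edgeR), and the family total was 168 ± 12.7 FPKM in MAMs and 270 ± 12.0 in RAMs. Enah was below the minimum for testing.

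Of the coronin family Coro1a held 37.0% ± 4.54 in MAMs and 35.3% ± 1.41 in RAMs (exact permutation test, n = 5 each, adjusted p = 0.726), while other coronins differed widely. Coro6 was at 0.371 ± 0.119 FPKM in MAMs against 38.3 ± 7.73 in RAMs, with its log2 fold change at -6.84 (SE 0.188, adjusted p = 2.2e-13, edgeR). Coro2b was at 0.155 ± 0.0949 and 9.94 ± 1.81 FPKM, a log2 fold change of -5.65 (SE 0.542). Both are known mainly from muscle and nerve, and both were far higher in RAMs here. Coro1b was lower in MAMs by a log2 fold change of -0.64, and Coro1c, Coro2a and Coro7 were higher by 0.38, 0.66 and 0.85, all past the edgeR threshold. The MAM level of Coro6 was 0.871% of its RAM level, below the lowest such share, 1.07%, among the 81 genes over 1000 CPM in RAMs.

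**Figure D4:**
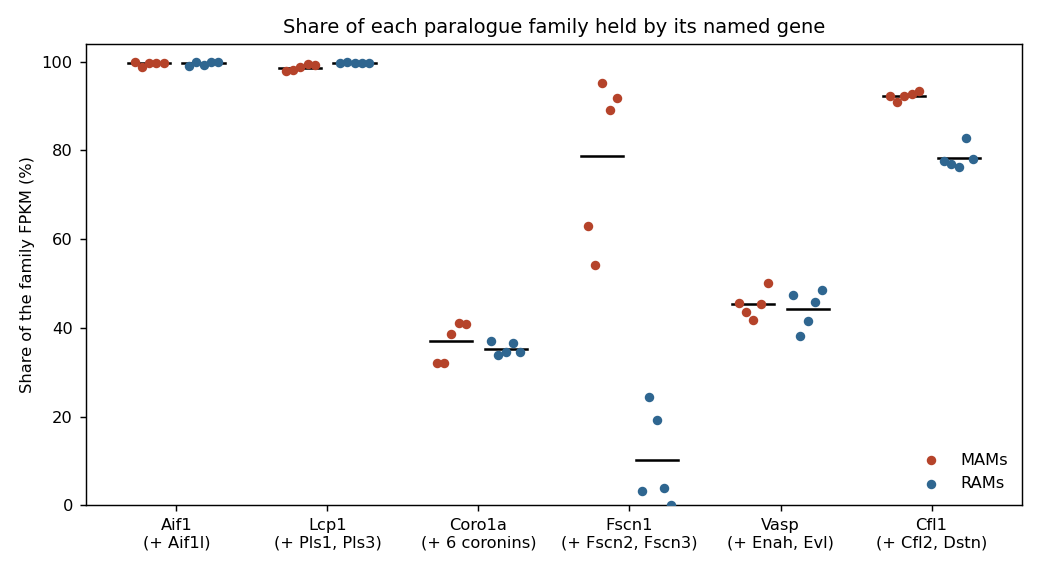
Share of the summed FPKM of each paralogue family held by the named gene (vertical axis, percent), with 1 point per library, MAMs in red and RAMs in blue, and a black bar at the mean of 5. The groups are apart for Fscn1, Cfl1 and, by about 1 percentage point, Lcp1, and overlap for Aif1, Coro1a and Vasp.

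The members were then set among 119 genes in 9 lists of actin roles, which hold the members too and were written with earlier results of these data known. Of these, 105 were tested, 54 were called higher in MAMs and 33 lower, and 20 and 13 were differentially expressed. The share called was 82.9%, against 56.2% of all genes tested. Without the members the counts were 98 tested, 51 higher and 30 lower. The median log2 fold change was 0.23 over the 105 genes, against -0.02 over all genes tested. Differentially expressed genes made up 31.4% of the actin genes and 30.3% of all genes tested. The groups did not overlap for 70 of the 105 genes, or 66.7%, against 44.9% of all genes tested. Actin genes were also more often abundant, with 38 of the 105 over 100 FPKM in a group, against 872 of all 11571 genes tested. Abundant genes are counted more precisely, and the part of abundance in the shares called and not overlapping was not tested.

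Bundling and crosslinking genes had the largest median of the 9 lists, a log2 fold change of 2.15. All 13 tested were called, where 56.2% of all genes were, 8 higher and 5 lower in MAMs. Marcks, which encodes a filament-crosslinking substrate of protein kinase C, ran from 300.2 to 401 CPM in MAMs against 3.44 to 4.38 in RAMs, a log2 fold change of 6.66 (SE 0.124, adjusted p = 3.9e-15, edgeR). Flnc, the muscle filamin, was at 5.27 (SE 0.834), from 3.36 to 19.7 CPM in MAMs. Aif1, Fscn1, Pls3, Marcksl1 and Actn4 were also among those that were higher, the last 2 named after their values were seen. Lower in MAMs were Actn1, the gene of alpha-actinin 1, at -2.91 (SE 0.231), Espn at -1.64 (SE 0.390) with groups that overlapped, Lsp1, Lcp1, and Flna, named after its values were seen, at -0.73. Plastin genes thus had paralogues on both sides, Pls3 against Lcp1. Flnc, at a mean of 1.07 FPKM in MAMs and 0.0406 in RAMs, passed the minimum for testing through MAMs alone. Its direction is tied to that filter, so no split among filamins is read from Flnc and Flna. Flnc and Pls3, like the stromal marker sums given above, were higher in MAMs, and the part of other cells in their values was not tested.

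Of 12 tested Ena/VASP and formin genes, 10 were called lower in MAMs, where 27.3% of all genes were, and 1 higher, with a median log2 fold change of -0.63. Of the 10, 4 passed the rule of a fold change over 2, where 15.1% of all genes tested were lower by that rule. The lower ones included Fmnl1, the leukocyte formin, at -1.31 (SE 0.101), Diaph3 at -1.36 (SE 0.245) and Daam1 at -1.21 (SE 0.132). Fmnl2, a formin of lamellipodia and filopodia, was the exception, with 155 to 197 CPM in the MAM libraries against 8.05 to 13.6 in the RAM libraries, a log2 fold change of 4.15 (SE 0.169, adjusted p = 1.8e-11, edgeR).

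The branched-actin genes that passed the test were mostly higher in MAMs. In the Arp2/3 complex 6 of 9 subunit genes were called higher, where 28.9% of all genes were, the largest difference being Actr3 at a log2 fold change of 1.14 (SE 0.0601), with a median of 0.34. The other 3 subunits were not called. Of 16 tested activators and regulators of the complex, 9 were called higher and 3 lower, against 28.9% and 27.3% of all genes. Cyfip1, Cyfip2 and Abi3, all of the WAVE regulatory complex, were higher at 1.23 (SE 0.0747), 2.57 (SE 0.382) and 1.50 (SE 0.136). Arpin, which encodes an inhibitor of the Arp2/3 complex, was lower at -1.24 (SE 0.409), with groups that overlapped. Exons of other genes overlap Cyfip1 and Abi3 on the opposite strand.

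Upstream of both, Tiam1, which encodes an exchange factor that activates Rac, had 80.5 to 119 CPM in the MAM libraries against 0.682 to 1.11 in the RAM libraries, a log2 fold change of 6.82 (SE 0.188, adjusted p = 2.3e-13, edgeR). Vav3, another exchange factor, was at 2.79 (SE 0.107).

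Genes of severing and monomer supply were mixed. Of 19 tested genes of cofilin and monomer control, 8 were called higher and 7 lower, beside 28.9% and 27.3% of all genes. Limk1 and Limk2, whose kinases phosphorylate and inactivate cofilin, differed in opposite directions, Limk1 at 2.42 (SE 0.280) and Limk2 at -1.06 (SE 0.242) with groups that overlapped. Twf1, the gene of the monomer-binding twinfilin 1, was at 1.05 (SE 0.105). Of 11 tested capping and severing genes, 6 were called higher and 3 lower, beside the same 28.9% and 27.3% of all genes. Eps8 was at 1.87 (SE 0.104), Gsn, the gene of gelsolin, at 1.07 (SE 0.166) and Svil, the gene of supervillin, at -1.33 (SE 0.0863). Of the actin monomer genes themselves, 3 were tested and 1 was called, where 56.2% of all genes were. It was Actb, named after its values were seen, at 0.35 (SE 0.0580, adjusted p = 0.00011, edgeR).

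**Figure D5:**
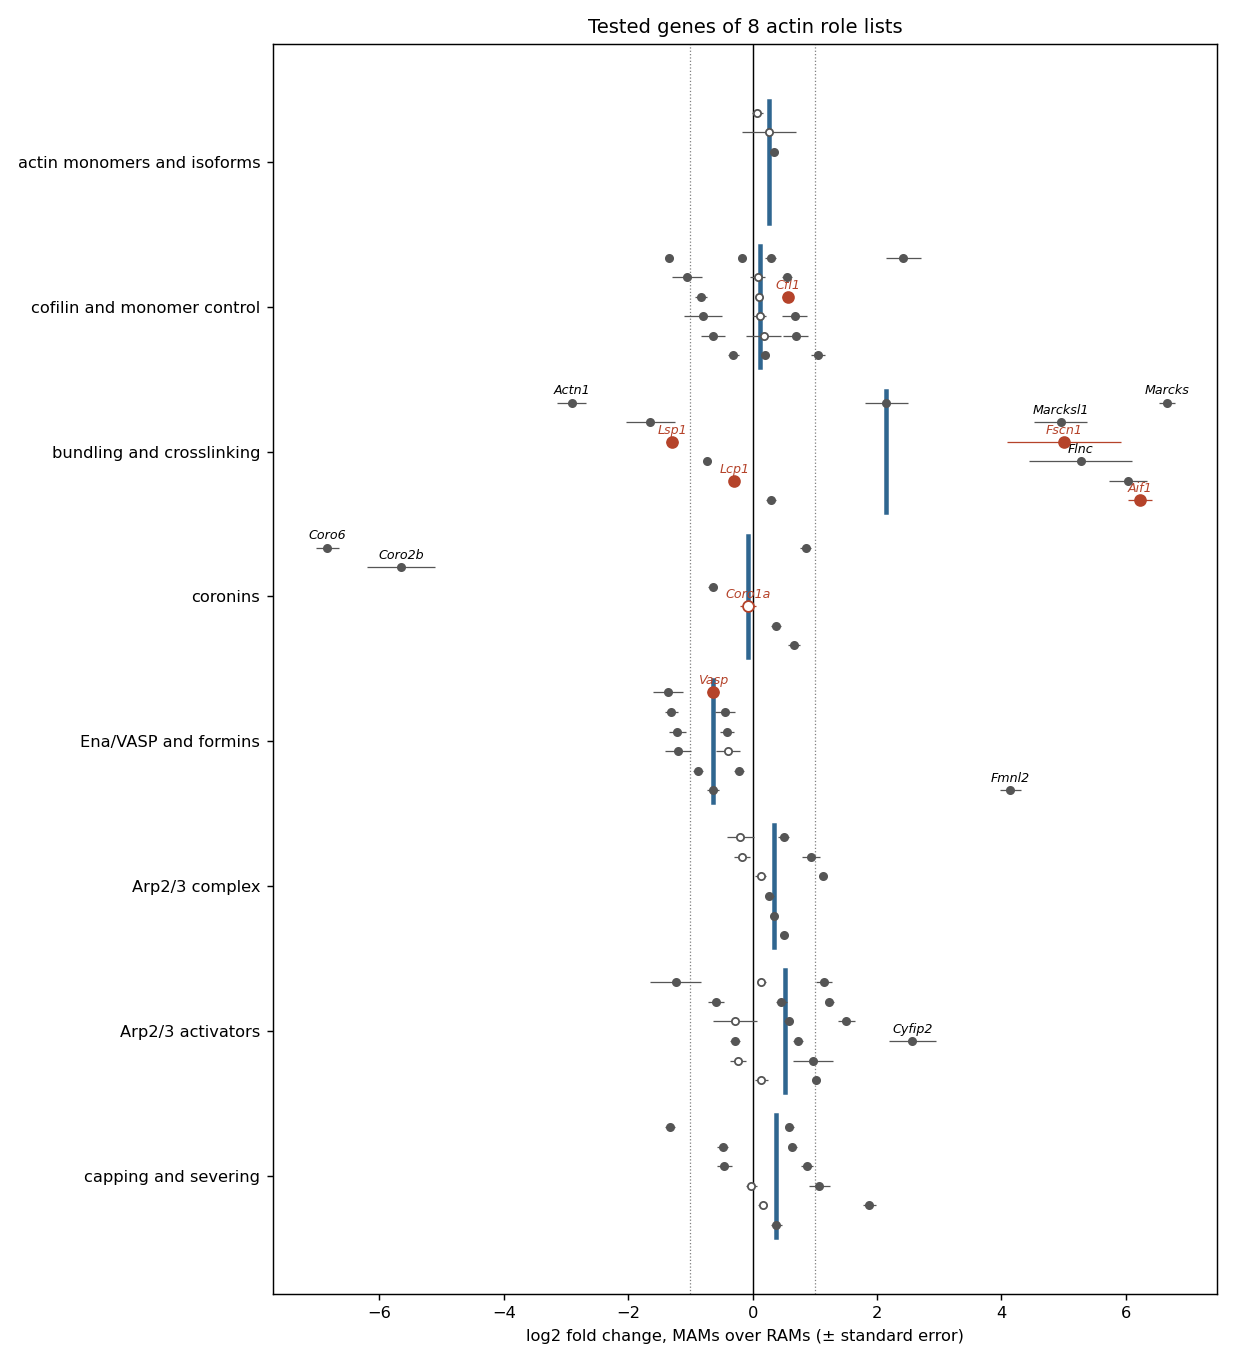
The log2 fold change of MAMs over RAMs (horizontal axis, ± standard error) for the tested genes of 8 of the actin lists, filled where called by edgeR, with members in red, blue bars at list medians and dotted lines at a fold change of 2. The points farthest from 0 are Coro6 at -6.84 and Marcks at 6.66, and the bundling list spreads widest, from -2.91 to 6.66 around its median of 2.15.

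Of 38 actin genes over 100 FPKM in either group, a limit chosen after the values were seen, 6 were differentially expressed, Aif1, Lsp1, Dstn, Fmnl1, Actr3 and Nckap1l. Over the 872 genes of all kinds past that limit 44.4% were differentially expressed. At or under the limit it went the other way, with 27 of 67 actin genes differentially expressed, against 29.2% of all genes tested there. No test was made of how these shares differ.

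The 5 genes whose pattern over the 10 libraries was nearest to that of Aif1 were in none of the actin lists. Those lists hold only 105 of the 11571 genes tested, so genes outside them are what such a ranking would mostly return. Likeness was the root mean square distance of log2 CPM after centring each gene on its own mean, so that the difference between groups enters it. The nearest 5 were Sdc4 at 0.184, Fyb at 0.190, Ccl12 at 0.201, Arg1 at 0.227 and Pla2g7 at 0.228. They encode in turn a heparan sulfate proteoglycan, an adaptor of leukocyte adhesion, a chemokine, arginase 1 and a lipoprotein-associated phospholipase. Their log2 fold changes lay between 6.03 (Arg1) and 6.38 (Pla2g7), beside the 6.23 of Aif1, a closeness that the measure itself selects for. Of the members Fscn1 was nearest, at 1.44, with 5.25% of all genes nearer. Cfl1 was at 2.83 and Lsp1, the farthest, at 3.76, where the median over all genes was 3.14.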

How the data were processed

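RNA-seq libraries of 5 MAM and 5 RAM samples were used, grouped by their labels. The authors aligned reads to GRCm38 with TopHat2 (2.0.13) and deposited raw counts per gene from HTSeq (0.6.1), and FPKM values from Cufflinks (2.2.1), which scale by transcript length and mapped fragments. Submitters' processing notes also list DESeq2 (1.6.3). Lines that name no gene, 56.5% ± 1.65 (SD, n = 5) of all lines in MAMs and 63.2% ± 0.898 (SD, n = 5) in RAMs, were left out.

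The test covered the 11571 genes whose mean FPKM reached 1 in MAMs or in RAMs and that had a count above 0. It was done with edgeR's quasi-likelihood test (edgeR 4.0.16, R 4.3.3) with TMM normalization (factors 0.897 to 0.943 in MAMs, 1.07 to 1.10 in RAMs), no covariate and Benjamini-Hochberg adjustment. Log2 CPM used a prior count of 2. Family shares were tested by exact permutation over all 252 ways to label the 10 libraries. Alternatives were DESeq2 (1.42.0), upper-quartile scaling, RLE, filterByExpr, no filter at all, limma (3.58.1) on log2(FPKM + 1) and log2(FPKM + 0.1), a replicate block, and each library left out. On simulated counts of 11571 genes, 200 of them changed, edgeR recovered 91% of 2-fold and 100% of 4-fold changes with 13 false calls. Far more genes differed in the real data, where 56.2% were called, so these rates may not carry over to it. Figures were drawn with matplotlib (3.10.9).

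Members, lists and the rule for named genes were chosen with earlier results of these data known. Besides members and their paralogues, each list named up to 3 genes with the largest differences in each direction among differentially expressed genes, and the text named the 5 genes nearest to Aif1 in pattern, the 3 nearest protein-coding genes on either side of it, and leading markers of the marker lists and markers without a count. Other genes are given as named after their values were seen. Marker lists not described in the report moved as follows, in summed CPM. Macrophage genes of both sorts ran from 22262 to 28557 in MAMs and from 31849 to 39089 in RAMs. Monocyte genes ran from 1032 to 1265 and from 7601 to 10159, where Chil3 made 9151 CPM of the RAM sum on average. Of the 8 monocyte genes 6, led by Ccr2, were called higher in MAMs, where 28.9% of all genes were, and Chil3 was called lower. T and NK cell genes were led by Cd4 in MAMs and Cd3e in RAMs. B cell genes ran from 4.27 to 23.1 and from 2.67 to 16.7, neutrophil genes (led by S100a8, with Elane at 0 in both) from 4.03 to 18.0 and from 1.71 to 3.98, lung epithelial genes (led by Sftpc, with Scgb3a2 and Nkx2-1 at 0 in MAMs) from 1.59 to 14.5 and from 27.2 to 49.5, and erythrocyte genes (led by Alas2) from 2.17 to 5.19 and from 1.27 to 5.28. The values of 2 genes and of 1 actin list are not reported here. Gene positions came from GENCODE M21 and promoters from RefSeq. By the methods of the study a sample is 1 mouse or 1 pool of metastases, so p-values measure the spread between such mice and pools, and counting intervals treat reads as independent molecules, which reads lacking molecular identifiers are not.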

Additional observations from a re-analysis of the deposited data

Results flagged for a closer look

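Among 28 sets of 5 values, the CPM of each gene and the family shares in each group, 4 held 1 library far from the rest by Dixon's ratio of gap to range. Aif1l was highest in MAM replicate 2 at 6.45 CPM, with the other MAM libraries at 0.0407 to 1.63. The share of Aif1 in its family was lowest in the same library, at 98.7%, with the others at 99.8% to 100.0%. Lsp1 was highest in RAM replicate 1 at 752 CPM, with the others at 540.0 to 578. The share of Cfl1 in its family was highest in RAM replicate 4 at 82.7%, with the others at 76.2% to 78.1%. The ratio singles out a library by chance in 5% of such sets, and the causes were not tested.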

How the results depend on the processing

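Of the values that answer a comparison, those that were called kept their direction and stayed past the threshold under every alternative run, with 1 exception, and those that were not called stayed so. The share of Fscn1 in its family, computed over tested genes only, differed by 0 percentage points, because Fscn1 was the one fascin tested. Across the alternatives other than left-out libraries, the log2 fold change ran from 5.97 to 6.38 for Aif1, from 2.06 to 5.52 for Fscn1, from 0.40 to 0.58 for Cfl1, from -0.46 to -0.27 for Lcp1, from -1.46 to -1.27 for Lsp1, from -0.80 to -0.61 for Vasp and from -0.23 to -0.05 for Coro1a. The lowest Fscn1 value came from log2(FPKM + 1), where the pseudocount exceeds its RAM level. Leaving out each library in turn gave 6.14 to 6.36 for Aif1, 4.67 to 5.79 for Fscn1, 0.51 to 0.63 for Cfl1, -0.32 to -0.26 for Lcp1, -1.34 to -1.20 for Lsp1, -0.69 to -0.58 for Vasp and -0.16 to 0.01 for Coro1a, which crossed 0. Without a filter Aif1l was tested too, with a log2 fold change of 7.34 (SE 1.38, adjusted p = 0.00028, edgeR) that depends on the prior count. Upper-quartile scaling moved the median log2 fold change of all genes from -0.02 to -0.18, and values under it are lower by about that shift. Counts of differentially expressed genes in single actin lists moved by over 1.5 times in 13 instances, by 1 or 2 genes each. With the replicate number as a block the Aif1 value was 6.22 and 6305 genes were called in place of 6504, but same-numbered libraries did not deviate together (correlations -0.0366 to 0.0294, best match in 2 of 5), so the numbers do not pair samples. The filter leaves genes under 1 FPKM, such as Aif1l, Fscn2, Fscn3, Pls1 and Enah, without a test at this depth.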
